A study of Homo sapiens with 51 samples.

Results

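Glycolysis and pyruvate handling are described here through 32 genes, chosen by name: the enzymes that take glucose to pyruvate and lactate, the enzymes that set the level of fructose 2,6-bisphosphate, the pyruvate dehydrogenase complex and its kinases, the lactate and pyruvate transporters, and phosphoglucomutase. Each of the 32 had a row among the 58051 of the deposited gene count table, and each passed the filter on low counts, which 19603 genes passed. The counts come from 51 RNA libraries of H1 cells, a long-established line of human embryonic stem cells. Untreated cells were kept in mTeSR1 medium. The other cells were moved to TeSR E5 medium with 3.2 µM insulin, 20 ng/mL FGF2 and 1 µM of a compound written LY29004, and received either 100 ng/mL Activin with 10 ng/mL BMP4 (called Activin+BMP4) or 50 ng/mL BMP4 alone (called BMP4) for 1, 6, 12, 24, 36, 48, 72 or 96 h. There were 3 libraries in each of the 17 groups. The treatments differ in Activin and in BMP4 dose together, and treated cells differ from untreated cells in medium as well as in growth factors, so these parts cannot be told apart. All libraries come from 1 cell line, and the labels give triplicates and name no separate cultures; the p-values below therefore cover only the spread between these samples, which may be technical.

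Glycolysis splits glucose into pyruvate, with the steps of hexokinase, phosphofructokinase and pyruvate kinase as its main points of control. Pyruvate is then either reduced to lactate by lactate dehydrogenase and exported through monocarboxylate transporters, or oxidised to acetyl-CoA by pyruvate dehydrogenase, which the PDK kinases switch off by phosphorylation. Human embryonic stem cells are known for a high rate of glycolysis, and several steps have isozymes encoded by separate genes whose balance differs between tissues.

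Library totals ran from 22.8 M to 30.4 M counts. Levels are CPM, the share of a library's counts that fell on the gene per 1 M counts, after TMM scaling for library composition, with factors between 0.966 and 1.03. All 9 pluripotency markers were above 1 CPM in every group. Their summed level was 10900 to 11100 CPM in untreated cells, and at 96 h it was 7440 to 7670 CPM under Activin+BMP4, against 5160 to 5470 CPM under BMP4. At 96 h the summed level of 6 definitive endoderm markers was 3210 to 4280 CPM under Activin+BMP4, against 176 to 210 CPM under BMP4. The sum of 6 amnion markers was 39.2 to 57.9 CPM under Activin+BMP4, against 1450 to 1640 CPM under BMP4, that of 6 mesoderm markers 47.8 to 65.9 CPM against 798 to 904 CPM, and that of 6 blood and endothelium markers 193 to 203 CPM against 723 to 945 CPM. Of 5 trophoblast markers, CGA, CGB5, PSG1 and ELF5 were under 1 CPM in both. The treatments thus differed in these markers at 96 h as well as in the members described below. The part of the markers' cell types in the members' differences was not tested, and in bulk samples fewer cells of a type and less RNA per cell cannot be told apart. A gene "passed" at an adjusted p under 0.05 (edgeR, quasi-likelihood; adjusted over all genes tested by the Benjamini-Hochberg method), and was "called" when it also changed at least 2-fold. Values after ± are SDs over n = 3 libraries unless they are named as standard errors (SE).

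In 3 groups 1 library stood apart from the rest: replicate 2 of Activin+BMP4 at 48 h, replicate 3 of Activin+BMP4 at 96 h, and, among the BMP4 groups, replicate 1 at 12 h. Glycolytic genes differed most in the one at 96 h, and so did all genes tested. In it, 7 members were more than 0.5 higher on the log2 scale than the mean of the other 2 libraries of the group, and the median member stood 0.3 higher against -0.02 for all genes tested. In either direction 8 members were beyond 0.5, against 18.5% of all genes tested. SLC16A3, the transporter MCT4 that exports lactate, was at 11, 11.2 and 30.7 CPM in replicates 1, 2 and 3. ALDOC, an aldolase isozyme, was at 19.5, 20.2 and 44.2 CPM. LDHA, the lactate dehydrogenase subunit of muscle, was at 499, 527 and 825 CPM. Replicate 3 was thus the high library for each of these genes. HK2, ENO2, PGK1 and ALDOA were the other members past that line. PKM, PDHB, PDHA1, PFKFB3, DLAT and PDK4 were lower in replicate 3 than in the mean of the others. The fit shares 1 estimate of spread over all groups, so a standard error does not grow with the spread of this group alone, and the main values that use this group are followed by the value without replicate 3. At Activin+BMP4 72 h, replicate 3 was also the highest of its group for LDHA (627, 698 and 791 CPM), SLC16A3 (7.3, 15.1 and 19.2 CPM), ALDOC (24.5, 30.4 and 35.1 CPM) and HK2 (82.4, 96 and 113 CPM).

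**Figure D1:**
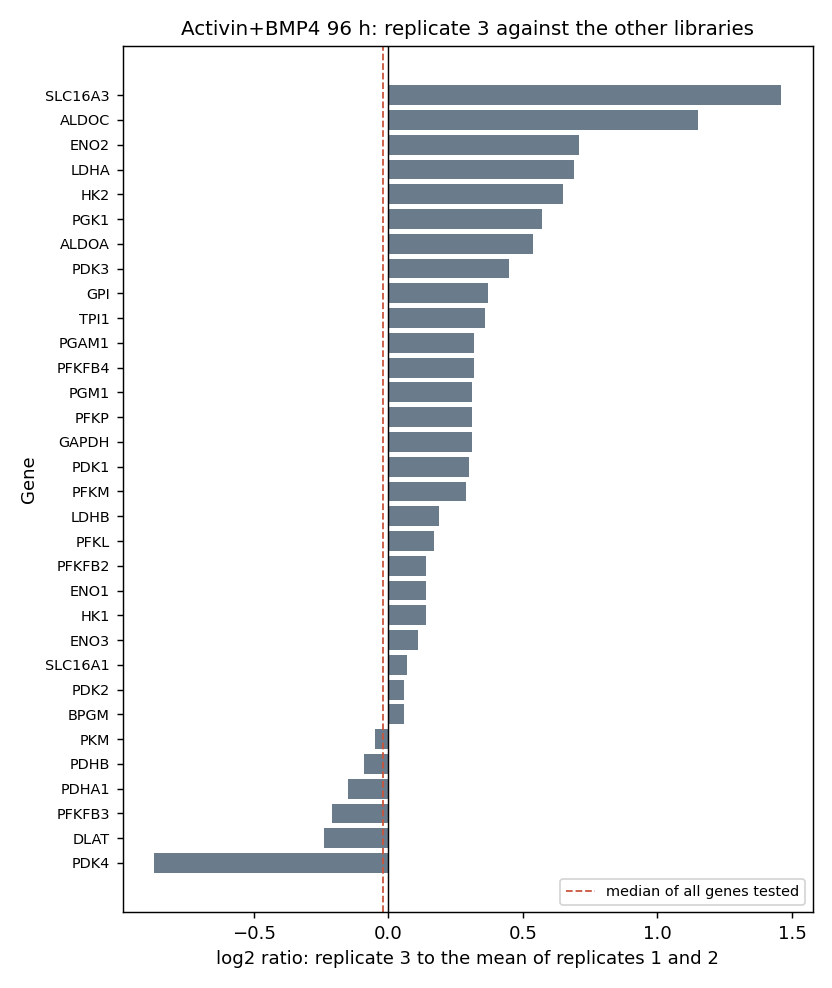
Each bar gives, for 1 of the 32 genes, the log2 ratio of its CPM in Activin+BMP4 96 h replicate 3 to the mean of replicates 1 and 2 (with 0.1 CPM added to each), and the dashed line the median of all genes tested. SLC16A3 at 1.46 and ALDOC at 1.15 lead, and PDK4 at -0.87 is lowest.

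The promoters of the 3 of these 7 genes that have a single window in the RefSeq table (GRCh38.p14) are shown because their genes moved together in that library. Each window runs from 250 bases before to 50 after the start, 5′ to 3′ on the gene's strand. Capitals mark ACGTG or its reverse complement CACGT, a form of the core of the hypoxia response element. The other form of this core, GCGTG, was not searched. Capitals also mark CAGAC or its reverse complement GTCTG, the SMAD box. Both strands were searched, and overlapping matches run together (CACGTG, the E-box, holds ACGTG on both strands). ALDOC lies at chr17:28576846-28577145 (minus strand), PGK1 at chrX:78103998-78104297 (plus strand) and ENO2 at chr12:6914330-6914629 (plus strand).
ALDOC: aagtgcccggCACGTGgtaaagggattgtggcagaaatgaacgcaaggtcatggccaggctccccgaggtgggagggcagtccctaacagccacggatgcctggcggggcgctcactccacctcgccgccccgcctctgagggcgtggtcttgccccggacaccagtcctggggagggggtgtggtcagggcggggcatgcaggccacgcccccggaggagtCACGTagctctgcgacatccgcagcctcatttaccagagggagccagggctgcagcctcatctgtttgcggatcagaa
PGK1: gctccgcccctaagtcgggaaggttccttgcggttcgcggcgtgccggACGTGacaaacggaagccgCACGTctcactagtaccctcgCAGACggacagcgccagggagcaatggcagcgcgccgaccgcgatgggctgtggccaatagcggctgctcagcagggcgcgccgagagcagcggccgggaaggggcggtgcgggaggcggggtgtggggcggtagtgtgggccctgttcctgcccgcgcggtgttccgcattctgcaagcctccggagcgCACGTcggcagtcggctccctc
ENO2: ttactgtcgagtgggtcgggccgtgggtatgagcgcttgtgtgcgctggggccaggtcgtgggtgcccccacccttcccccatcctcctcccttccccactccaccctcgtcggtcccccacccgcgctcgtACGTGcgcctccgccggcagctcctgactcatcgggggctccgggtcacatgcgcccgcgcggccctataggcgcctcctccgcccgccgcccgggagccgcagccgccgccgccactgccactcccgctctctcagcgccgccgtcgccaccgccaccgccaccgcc
The ALDOC window held 3 matches to ACGTG on either strand, the PGK1 window 3 and the ENO2 window 1. Of the 30 members with an entry, 20 had ACGTG in at least 1 window, against 24.9% of all genes in the table. These shares of genes are not on the same footing, because a gene with more windows has more chances of a match. The 30 members had 61 windows, while all 27305 genes had 35116. The 27305 genes were not limited to those that passed the filter on low counts, as the members did. Windows were not matched for base composition. ACGTG lay in 24 of the members' 61 windows (39.3%), against 21.4% of all 35116 windows in the table. In the 7 genes high in replicate 3 it lay in 10 of 15 windows, with at least 1 match in each gene. In the other 23 members it lay in 14 of 46 windows (30.4%), with at least 1 match in 13 genes. The 7 genes were picked by their levels in that library, so this split only describes them. A link between the motif and the levels in replicate 3 was not tested. CAGAC lay in 39.3% of the members' windows and 45.3% of all windows. A match describes these letters only. PFKFB2 and SLC16A1 had no entry.

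Across the 17 groups, 13 of the 32 genes spanned at least 2-fold between their lowest and highest group means, against 57.4% of all genes tested, and 11 spanned less than 1.5-fold. The median span was 1.85-fold for the members and 2.28-fold for all genes tested, whose lowest means were set to at least 0.1 CPM. The widest were SLC16A3 (27.5-fold), PDK4 (22-fold), PGM1 (6.32-fold), PDK1 (4.35-fold), PKM (3.42-fold), PFKP (3.38-fold), PFKFB3 (2.82-fold) and PFKL (2.77-fold). The narrowest were TPI1, which interconverts the triose phosphates (1.25-fold), PGK1 (1.29-fold), ENO1 (1.3-fold), PGAM1 (1.32-fold) and DLAT (1.34-fold). In untreated cells the level per kilobase of exon was highest for GAPDH (1220 CPM per kb), then LDHB (456), ENO1 (346) and PGAM1 (323), and lowest for SLC16A3 (0.11) and PDK4 (0.0335). Exon length here is the union of all annotated exons (2568 bases for PGAM1, 8571 for PKM), so this order depends on the annotation. The summed level of the 18 genes from hexokinase to lactate dehydrogenase was 11900 ± 139 CPM in untreated cells, 11200 ± 1180 CPM at Activin+BMP4 96 h (10300, 10700 and 12500 CPM) and 10200 ± 268 CPM at BMP4 96 h. The Activin+BMP4 and BMP4 sums overlap at 96 h. Members moved in opposite directions within this sum: without GAPDH the log2 ratio of Activin+BMP4 96 h to untreated went from -0.09 to 0.07 and without PKM to -0.33.

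**Figure D2:**
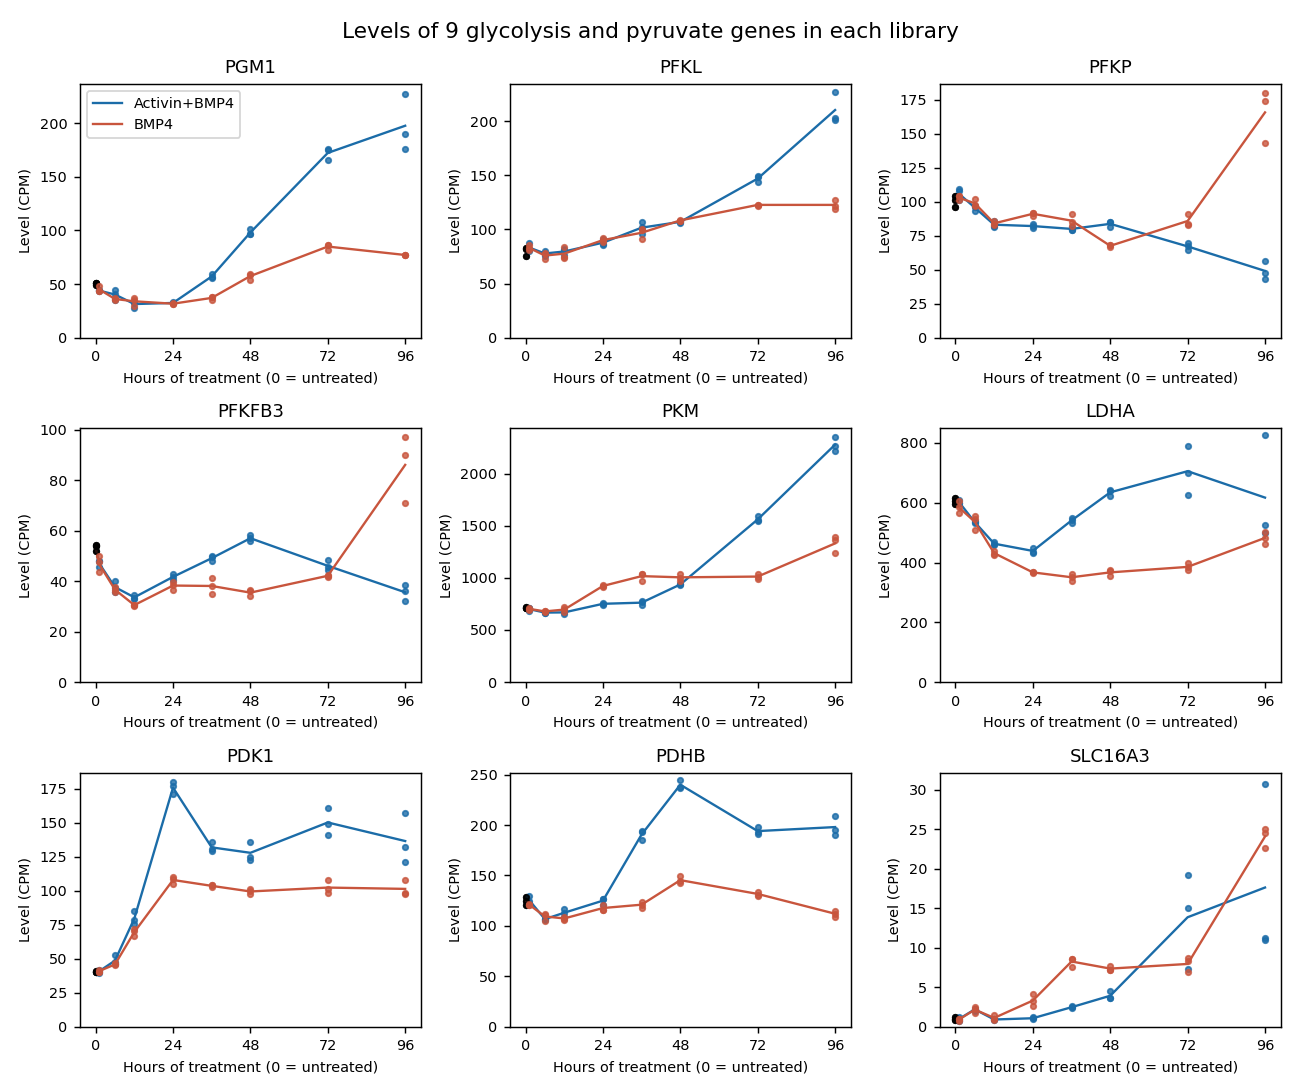
CPM of 9 genes in each library (points) against hours of treatment, with untreated libraries in black at 0 h and lines through the group means. PGM1, PFKL and PKM rise further with Activin+BMP4, PFKP and PFKFB3 end higher with BMP4, and SLC16A3 shows the spread of the Activin+BMP4 libraries at 72 and 96 h.

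The first question is what changed from untreated cells. These comparisons share the 3 untreated libraries, so their values stand side by side and no overlap between them is drawn. At 6 h with Activin+BMP4, 13 members passed (3 higher, 10 lower) and 1 was called, against 36.2% of all genes passing and 5.69% called. With only the groups compared, 21 passed there, in a fit whose share of all genes passing was not counted. At 6 h with BMP4, 13 passed (3 higher, 10 lower) and 1 was called, against 34.8% and 4.99%. The called gene in both was SLC16A3, at 2.19 ± 0.137 CPM under Activin+BMP4 and 2.16 ± 0.442 CPM under BMP4 against 0.99 ± 0.154 CPM untreated, and both calls were lost without untreated replicate 1 or 3, the one with BMP4 also without BMP4 6 h replicate 3. HK2, the inducible hexokinase, fell early. It was at 169, 170 and 165 CPM in untreated libraries, 93, 90.5 and 90.4 CPM after 6 h of Activin+BMP4, and 92.7, 92.6 and 94.1 CPM after 6 h of BMP4. The groups do not overlap, and the log2 changes were -0.88 (SE 0.09, adjusted p = 4.05e-11) and -0.85 (SE 0.09, adjusted p = 9.6e-11), under 2-fold. HK2 stayed between 87.9 and 118 CPM in the group means of both treatments from 6 h on. PFKFB3 and PFKFB4, which make and break fructose 2,6-bisphosphate, the activator of phosphofructokinase, also fell by 6 h: PFKFB4 by 0.7 on the log2 scale with Activin+BMP4 and 0.65 with BMP4.

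At 24 h, 20 members passed with Activin+BMP4 (3 higher, 17 lower; 40.1% of all genes passed) and 20 with BMP4 (5 higher, 15 lower; 38.8% of all genes). PDK1 was the single member called with Activin+BMP4, where 8.08% of all genes were called, and PDK1 and SLC16A3 were called with BMP4, where 7.21% were. PDK1 encodes a kinase that inhibits pyruvate dehydrogenase. Its level was 40.7, 40.6 and 40.3 CPM in untreated libraries, 177, 171 and 180 CPM at 24 h with Activin+BMP4 and 109, 110 and 105 CPM at 24 h with BMP4. No library of one group reached into another. The log2 rise over untreated cells was 2.12 (SE 0.06, adjusted p = 2.47e-28) with Activin+BMP4 and 1.41 (SE 0.06, adjusted p = 3.88e-22) with BMP4. From 36 h to 96 h its group means lay between 128 and 150 CPM under Activin+BMP4 and between 99.7 and 103 CPM under BMP4.

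At 48 h the passing members numbered 21 with Activin+BMP4 (7 higher, 14 lower; 52.6% of all genes) and 25 with BMP4 (8 higher, 17 lower; 50% of all genes). PDK1 and SLC16A3 were called with Activin+BMP4, against 15.8% of all genes, and PDK1, PDK4 and SLC16A3 with BMP4, against 12.2%. PDHB, the beta subunit of pyruvate dehydrogenase, reached its highest mean here, at 237, 245 and 238 CPM under Activin+BMP4, against 129, 125 and 121 CPM untreated. That rise was 0.94 on the log2 scale (SE 0.03, adjusted p = 2.67e-26), just under 2-fold, while BMP4 gave 143, 144 and 149 CPM.

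At 96 h, 27 members passed with Activin+BMP4 (12 higher, 15 lower; 69.7% of all genes) and 7 were called, against 26.5% of all genes. PFKL, PKM, PDK1, PDK4, SLC16A3 and PGM1 were higher and PFKP lower than in untreated cells. Without Activin+BMP4 96 h replicate 3, 28 passed and 9 were called, with HK2 (-1.19) and ALDOC (-1.12) added as lower and the other calls kept, against 67% passing and 26.4% called among all genes; the PFKP call was lost without replicate 2 of that group (log2 change -0.95). With BMP4, 27 members passed (10 higher, 17 lower; 65.4% of all genes), and PDK1, PDK4 and SLC16A3 were called higher, against 23.2% of all genes. The largest changes were in SLC16A3 and PDK4, from very low levels. SLC16A3 was at 0.924, 1.17 and 0.88 CPM untreated, and at 25, 24.6 and 22.7 CPM under BMP4, a log2 rise of 4.6 (SE 0.31, adjusted p = 7.35e-17). With Activin+BMP4 its rise was 4.15 (SE 0.31), or 3.48 without replicate 3. On the GENCODE 29 annotation 482 bases of SLC16A3 exons overlap CSNK1D on the other strand, whose counts were 2070% of its own. CSNK1D changed by -0.06 and -0.05 at 96 h, but strand use in the counting is not given in the sources used here, so reads of the pair may be mixed. PDK4, a kinase of the same family as PDK1, was at 0.0804, 0.0805 and 0.293 CPM untreated, 1.26, 2.21 and 0.905 CPM under Activin+BMP4 and 1.84, 2.02 and 2.56 CPM under BMP4. Every treated library at 96 h lies above the untreated ones, but PDK4 counts ran only from 0 to 78 per library. PDK4 passed the filter on low counts through the later groups, where it is high, so its calls over untreated cells rest on the levels that let it in.

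PKM, pyruvate kinase of most dividing cells, was at 718, 709 and 708 CPM in untreated libraries. It was at 2260, 2350 and 2220 CPM after 96 h of Activin+BMP4 and at 1360, 1390 and 1240 CPM after 96 h of BMP4. The log2 rises were 1.68 (SE 0.03, adjusted p = 3.27e-35; 1.7 without Activin+BMP4 replicate 3) and 0.91 (SE 0.03, adjusted p = 5.87e-26). GPI, which converts glucose 6-phosphate to fructose 6-phosphate, fell in both treatments at 96 h, by 0.7 with Activin+BMP4 and 0.87 with BMP4 on the log2 scale. GAPDH fell by 0.55 and 0.43, LDHB by 0.58 and 0.32, and SLC16A1, the transporter MCT1, by 0.41 and 0.52. These 4 falls passed in both treatments, and with Activin+BMP4 also without replicate 3 (GPI -0.84, GAPDH -0.66, LDHB -0.64, SLC16A1 -0.44).

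The second question is where BMP4 and Activin+BMP4 differed at the same time. At 1 h no member passed, against 0.0102% of all genes, and none was called, against 0.0051%. DESeq2 also called 0, and edgeR's unadjusted p was under 0.05 for 1 member, ENO3. Counts at an unadjusted p, here and below, were not made over all genes. The members' log2 differences at 1 h ran from -0.39 to 0.24. At 6 h ENO3 alone passed, lower with BMP4 (log2 -0.43, SE 0.11, adjusted p = 0.00805), against 4.02% of all genes passing, and it did not pass without Activin+BMP4 6 h replicate 3 or BMP4 6 h replicate 1. None was called by edgeR or DESeq2 at 6 h, against 0.505% (edgeR; unadjusted p under 0.05 for 2 members). At 12 h 4 passed: PFKM, PDK2 and SLC16A1 higher and PDK1 lower with BMP4, against 9.02% of all genes, and none was called by edgeR or DESeq2, against 1.42% (edgeR; unadjusted p under 0.05 for 7 members). Without replicate 1 of either treatment at 12 h, 2 passed, in fits whose share of all genes passing was not counted. ENO3, PDK2 and PFKM overlap genes on the other strand. ENO3 shares 111 bases with PFN1, whose counts were 10200% of its own. PDK2 shares 38.6% of its exon bases with SAMD14, which itself was 1.55 higher (log2) with BMP4 at 24 h. PFKM shares 8.58% of its exon bases with SENP1, whose counts were 53.3% of its own.

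More members passed from 24 h on. The passing members numbered 10 at 24 h (6 higher with BMP4, 4 lower; 29.3% of all genes passed), 14 at 36 h (5 higher, 9 lower; 27.7%), 22 at 48 h (9 higher, 13 lower; 41%), 20 at 72 h (2 higher, 18 lower; 39.5%) and 25 at 96 h (9 higher, 16 lower; 54.4%). At 24 h 6 passed without Activin+BMP4 replicate 1, and 17 with only the groups compared, a setting that gave 13 at 96 h. The share of all genes passing was not counted in those fits, so these counts cannot be set against it. Few were 2-fold. SLC16A3 was called at 24 h and at 36 h, where 4.01% and 5.58% of all genes were called. No member was called at 48 h by edgeR or DESeq2, against 9.25% (edgeR). There the unadjusted p was under 0.05 for 24 members, a count not made over all genes. PGM1 was called at 72 h, against 9.63%, and PFKP, PFKFB3 and PGM1 at 96 h, against 15.6%. The members passing at 96 h were 78.1% of the 32, and those called 9.38%. At that time the median size of the log2 difference was 0.26 over the members and 0.325 over all genes tested, and the median signed difference -0.12 and 0.005.

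Without Activin+BMP4 96 h replicate 3, 24 members passed at 96 h (12 higher with BMP4, 12 lower), against 50.9% of all genes, and 4 were called, against 15.6%. SLC16A3 joined the called genes, its difference moving from 0.45 (adjusted p = 0.0877) to 1.11 (adjusted p = 2.73e-06). LDHA, GPI, PGK1, PGAM1 and DLAT no longer passed: LDHA went from -0.35 to -0.09. ALDOA, ALDOC and PDK3 passed as higher with BMP4, with ALDOC turning from -0.23 to 0.26. PFKP, PFKFB3, PGM1, PKM, PFKL and PDHB kept their direction and passed in both fits.

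**Figure D3:**
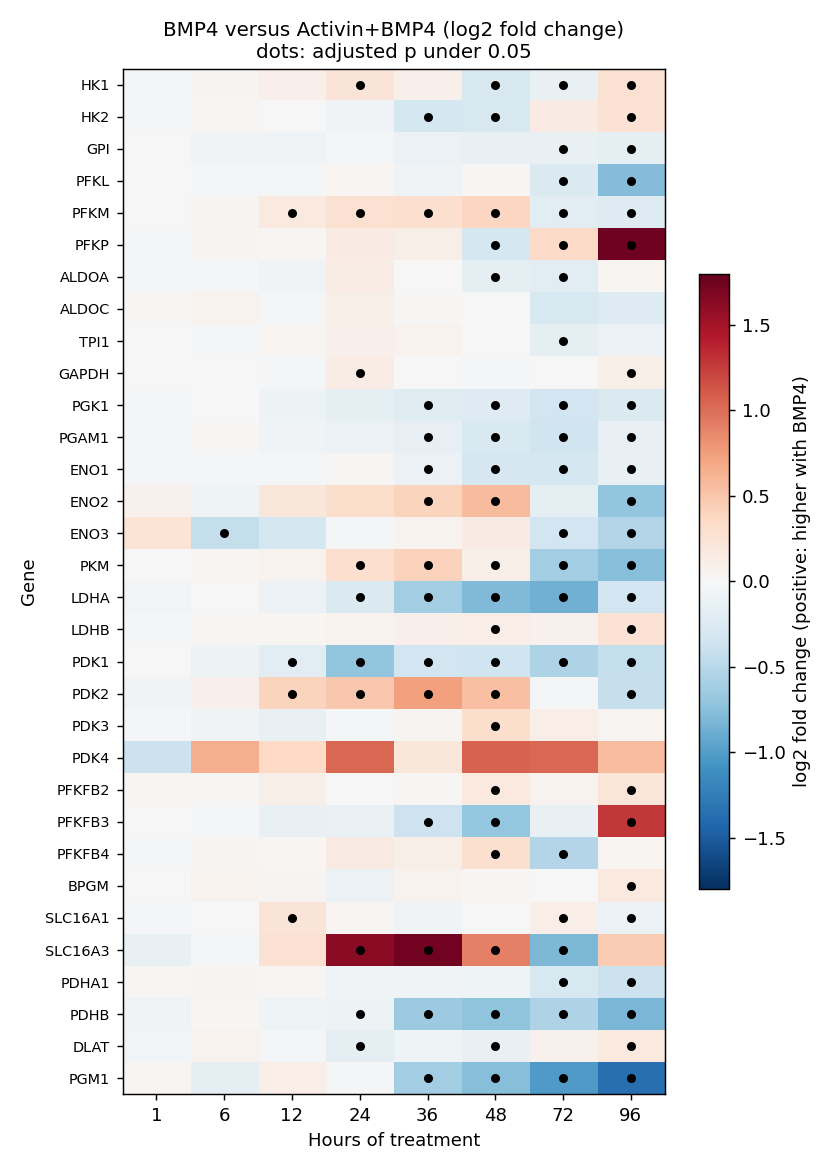
log2 fold change of BMP4 against Activin+BMP4 at each time (columns, hours) for the 32 genes (rows), red where BMP4 is higher and blue where it is lower, with dots at adjusted p under 0.05. SLC16A3 at 24 and 36 h and PFKP and PFKFB3 at 96 h are the deepest red, and PGM1 at 96 h the deepest blue.

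Phosphofructokinase is the committing step of glycolysis, and its 3 genes moved apart by treatment. PFKP (chr10:3066333-3137712, plus strand, GRCh38), the platelet-type subunit, was at 104, 96.2 and 101 CPM untreated. At 96 h it was at 47.4, 43.4 and 56.4 CPM under Activin+BMP4 and at 180, 174 and 143 CPM under BMP4. The untreated libraries lay between the treated groups, and no library overlapped. The difference was 3.38-fold (log2 1.75, SE 0.06, adjusted p = 1.09e-26; 1.86 without Activin+BMP4 replicate 3). PFKL (chr21:44300051-44327376, plus strand), the liver-type subunit, was at 82.4, 81.7 and 75.5 CPM untreated, 201, 203 and 227 CPM under Activin+BMP4 and 119, 127 and 122 CPM under BMP4 at 96 h. It was lower with BMP4 by 0.78 on the log2 scale, 1.72-fold (SE 0.05, adjusted p = 9.28e-19; -0.73 without replicate 3). PFKM, the muscle-type subunit, ranged only 1.52-fold over the 17 groups. Per kilobase of exon, PFKP made up 46.3% ± 0.946 of the phosphofructokinase level in untreated cells, 20.2% ± 1.07 with Activin+BMP4 at 96 h and 55.1% ± 3.65 with BMP4, while PFKL made up 20% ± 0.929, 47% ± 1.31 and 22.2% ± 1.43. The leading gene by this measure was thus PFKL with Activin+BMP4 and PFKP with BMP4. The shares depend on the union of annotated exons, 4836 bases for PFKP and 8926 for PFKL. The summed level of the 3 genes differed little, at 359, 362 and 421 CPM under Activin+BMP4 and 398, 402 and 373 CPM under BMP4, which overlap. The summed level in untreated libraries was 287 to 297 CPM.

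PFKFB3 (chr10:6144934-6254644, plus strand), whose enzyme mainly makes fructose 2,6-bisphosphate, crossed over between the treatments. At 48 h it was at 55.8, 58.2 and 56.9 CPM under Activin+BMP4 and 34, 36.3 and 36 CPM under BMP4, a log2 difference of -0.69 (SE 0.07, adjusted p = 4.77e-11). At 96 h it was at 38.4, 36.1 and 32.2 CPM under Activin+BMP4 and 97.2, 89.8 and 71 CPM under BMP4, a log2 difference of 1.27 (SE 0.07, adjusted p = 3.57e-20; 1.2 without Activin+BMP4 replicate 3). The groups did not overlap at either time, and the order was opposite. The related PFKFB2 was higher with BMP4 by 0.22 at 96 h (0.26 without replicate 3), and PFKFB4 was lower by 0.53 at 72 h and did not pass at 96 h (0.03). PFKFB2 shares 315 exon bases with YOD1 on the other strand. YOD1 counts were 156% of those of PFKFB2 and differed by -0.04 on the log2 scale at 96 h.

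The promoters of genes whose treatments differed by at least 0.75 on the log2 scale at 96 h, and which have 1 or 2 windows in the table, are shown with the same capitals. PFKL lies at chr21:44299803-44300102 (plus strand), PKM at chr15:72231141-72231440 (minus strand), PDHB at chr3:58433783-58434082 (minus strand), and PFKFB3 has windows at chr10:6144671-6144970 and chr10:6202682-6202981 (plus strand).
PFKL: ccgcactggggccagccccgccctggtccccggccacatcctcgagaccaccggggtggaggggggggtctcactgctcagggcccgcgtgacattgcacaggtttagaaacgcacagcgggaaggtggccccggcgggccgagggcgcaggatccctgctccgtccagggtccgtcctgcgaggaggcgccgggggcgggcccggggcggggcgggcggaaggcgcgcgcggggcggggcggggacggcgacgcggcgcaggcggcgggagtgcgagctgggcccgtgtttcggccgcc
PKM: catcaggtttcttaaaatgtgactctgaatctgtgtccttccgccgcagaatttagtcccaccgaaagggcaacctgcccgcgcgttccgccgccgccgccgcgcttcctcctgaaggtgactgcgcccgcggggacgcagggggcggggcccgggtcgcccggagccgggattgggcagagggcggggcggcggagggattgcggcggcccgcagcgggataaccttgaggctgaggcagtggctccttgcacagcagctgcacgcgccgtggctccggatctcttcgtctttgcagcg
PDHB: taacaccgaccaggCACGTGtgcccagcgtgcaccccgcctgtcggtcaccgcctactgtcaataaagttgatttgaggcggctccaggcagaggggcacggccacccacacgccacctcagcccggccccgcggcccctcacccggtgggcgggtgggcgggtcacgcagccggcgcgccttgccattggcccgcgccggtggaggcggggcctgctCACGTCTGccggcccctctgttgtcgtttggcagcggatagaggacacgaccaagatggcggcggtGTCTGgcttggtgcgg
PFKFB3, upstream window: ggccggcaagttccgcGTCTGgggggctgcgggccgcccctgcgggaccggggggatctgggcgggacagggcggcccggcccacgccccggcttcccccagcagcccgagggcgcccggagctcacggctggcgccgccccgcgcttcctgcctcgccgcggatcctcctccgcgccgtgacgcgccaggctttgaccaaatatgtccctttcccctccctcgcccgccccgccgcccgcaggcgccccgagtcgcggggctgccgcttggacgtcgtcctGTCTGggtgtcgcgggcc
PFKFB3, downstream window: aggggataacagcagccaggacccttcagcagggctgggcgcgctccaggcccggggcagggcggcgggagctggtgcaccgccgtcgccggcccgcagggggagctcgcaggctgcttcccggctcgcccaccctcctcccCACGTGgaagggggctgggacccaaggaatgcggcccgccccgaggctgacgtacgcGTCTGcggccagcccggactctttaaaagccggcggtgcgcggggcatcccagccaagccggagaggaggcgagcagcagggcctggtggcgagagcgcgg
PFKL and PKM, both higher with Activin+BMP4, held neither ACGTG nor CAGAC on either strand. PDHB, also higher with Activin+BMP4, held 3 matches to ACGTG and 2 to CAGAC. The upstream PFKFB3 window held 2 matches to CAGAC, and the downstream window 2 to ACGTG, which are the 2 strands of 1 CACGTG, and 1 to CAGAC. PFKL, PKM and PDHB, which moved the same way at 96 h, did not share the searched letters in their windows. GCGTG or its reverse complement CACGC, not searched and not in capitals, occurs in the window of each.

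PGM1 (chr1:63593276-63660245, plus strand) interconverts glucose 1-phosphate and glucose 6-phosphate and so links glycogen to glycolysis. It was at 51.2, 48.9 and 51.2 CPM untreated and 32.8, 32.3 and 32 CPM at 24 h with Activin+BMP4. From there it reached 176, 190 and 227 CPM at 96 h with Activin+BMP4, against 77.4, 77 and 76.9 CPM under BMP4. The 24 h level was a fall from untreated cells in both treatments (log2 -0.64 and -0.67). No library of the 96 h groups overlapped, and the difference was 2.57-fold (log2 -1.36, SE 0.07, adjusted p = 1.71e-21; -1.25 without Activin+BMP4 replicate 3). At 72 h the difference was -1.02 (SE 0.07, adjusted p = 5e-17), and -0.99, under 2-fold, without BMP4 72 h replicate 3. PGM1 shares 197 exon bases with ITGB3BP on the other strand, whose counts were 33.4% of its own and which differed by 0.08 at 96 h.

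Pyruvate kinase and the enzymes on either side of pyruvate differed as follows. PKM was higher with BMP4 at 24 h (log2 0.3, SE 0.03, adjusted p = 1.83e-09) and 36 h (0.42). At 48 h it still passed as higher with BMP4, by 7.44%. It was lower at 72 h (-0.62) and 96 h (-0.77, SE 0.03, adjusted p = 2.17e-23, and -0.8 without Activin+BMP4 replicate 3). LDHA was lower with BMP4 at 24, 36, 48, 72 and 96 h. At 48 h it was at 621, 639 and 644 CPM under Activin+BMP4 and 372, 355 and 374 CPM under BMP4, a log2 difference of -0.79 (SE 0.09, adjusted p = 3.24e-10). At 96 h its BMP4 libraries, at 483, 501 and 463 CPM, overlap the Activin+BMP4 range. LDHB, the heart-type subunit, ranged 1.49-fold over the groups and LDHA 2.01-fold. The log2 ratio of LDHB to LDHA counts was 1.17 ± 0.0233 in untreated cells, 0.89 ± 0.043 with Activin+BMP4 at 48 h and 1.8 ± 0.00792 with BMP4 at 48 h. The 3 groups did not overlap in this ratio. At 96 h it was 0.77, 0.76 and 0.27 with Activin+BMP4 and 1.19, 1.11 and 1.24 with BMP4.

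**Figure D4:**
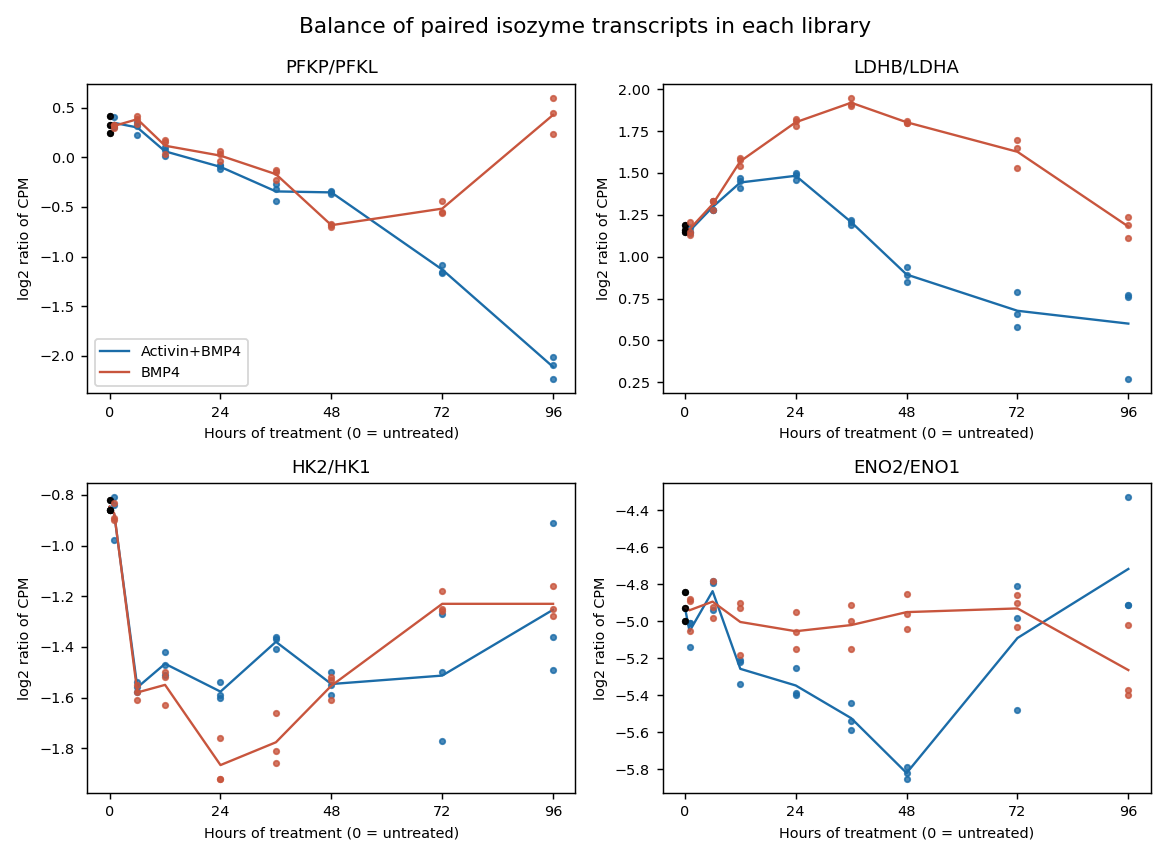
log2 ratio of CPM for 4 isozyme pairs in each library (points) against hours of treatment, untreated in black at 0 h, lines through group means. PFKP/PFKL ends at -2.11 with Activin+BMP4 and 0.43 with BMP4, LDHB/LDHA is higher with BMP4 from 12 h on with no overlap, and HK2/HK1 falls within 6 h in both.

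Of the lactate transporters, SLC16A3 was called over untreated cells at 6 h in both treatments and was higher with BMP4 at 24 and 36 h. At 24 h it was at 1.19, 1.08 and 0.924 CPM under Activin+BMP4 and 3.19, 4.11 and 2.62 CPM under BMP4 (log2 1.62, SE 0.36, adjusted p = 0.00056). At 36 h it was at 2.58, 2.5 and 2.31 CPM against 7.6, 8.62 and 8.55 CPM (log2 1.74, SE 0.29, adjusted p = 4.5e-06). The groups did not overlap at either time. At 48 h the difference was 0.91 (SE 0.27, adjusted p = 0.00536), and 1.02, past 2-fold, without Activin+BMP4 48 h replicate 2. At 72 h the order was opposite: SLC16A3 was lower with BMP4 (6.92, 8.27 and 8.65 CPM) by 0.81 on the log2 scale (SE 0.24, adjusted p = 0.00554), although replicate 1 of Activin+BMP4, at 7.3 CPM, lay within the BMP4 range. Without that replicate the difference was -1.11. SLC16A1 differed by at most 0.23 in size on the log2 scale.

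For pyruvate oxidation, PDHB was lower with BMP4 from 24 h on, by 0.09 at first, then by 0.66, 0.72, 0.56 and 0.82 on the log2 scale at 36, 48, 72 and 96 h (SE 0.03 at each). Its 96 h libraries were at 195, 209 and 190 CPM under Activin+BMP4 and 115, 112 and 109 CPM under BMP4 (-0.86 without Activin+BMP4 replicate 3). PDHA1, the alpha subunit of the same enzyme, was lower with BMP4 at 96 h by 0.38 (SE 0.04; -0.43 without that replicate), and DLAT, its acetyltransferase, was higher by 0.18 (SE 0.05; 0.1 and not passing without it). PDK1 was lower with BMP4 from 12 h on, by 0.71 at 24 h (SE 0.06, adjusted p = 2.47e-13) and 0.43 at 96 h (-0.33 without replicate 3). PDK2 was higher with BMP4 from 12 h to 48 h, by 0.74 at 36 h, and lower by 0.41 at 96 h (-0.4 without replicate 3). PDK3 differed by 0.32 at 48 h, and PDK4 passed at no time.

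The remaining members at 96 h differed by less than 2-fold. HK1, the housekeeping hexokinase, was higher with BMP4 by 0.27, HK2 by 0.26, BPGM, which makes 2,3-bisphosphoglycerate, by 0.18, and GAPDH by 0.11. Without Activin+BMP4 replicate 3 these were 0.32 for HK1, 0.5 for HK2, 0.19 for BPGM and 0.22 for GAPDH, so those of HK2 and GAPDH rest in size on that library. The enolases ENO1, ENO2 and ENO3 were lower with BMP4 by 0.13, 0.71 and 0.53 (-0.09, -0.43 and -0.5 without replicate 3). ENO2, the neuronal enolase, was at 51.8, 54 and 86.8 CPM under Activin+BMP4 and 36.2, 37.4 and 44.4 CPM under BMP4, with no overlap.

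Whether the treatment difference itself changed from 24 h to 96 h was tested as an interaction. 21 members passed (8 moving up with BMP4 relative to Activin+BMP4, 13 down; 45.5% of all genes passed) and 6 were called, against 13.6%. PFKP (1.6) and PFKFB3 (1.4) moved up, and ENO2 (-1.02), PKM (-1.07), SLC16A3 (-1.17) and PGM1 (-1.33) moved down. Without Activin+BMP4 96 h replicate 3, 19 passed and 4 were called, since ENO2 (-0.75) and SLC16A3 (-0.52, adjusted p = 0.207) were not, against 42% and 12.7% of all genes.

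Over the 17 group means the closest pairs of members were PFKL with PKM (r = 0.96), GPI with ALDOC (0.94) and GAPDH with LDHB (0.93), and the most opposed were PFKL with GAPDH (-0.92). These are descriptions, with no test, over groups of 2 time courses from the same cells.

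Genes around the pathway changed in part. Their counts at 96 h stand against 54.4% of all genes passing and 15.6% called. Of 27 other glycolysis and pyruvate genes tested, 4 passed higher and 5 lower with BMP4 at 96 h, and FBP1 and ENO4 were called lower, with no library of either above 1.32 CPM at 96 h. At 48 h PGAM2 and LDHD of these 27 were called higher (log2 1.91 and 1.59), against 9.25% of all genes called at that time, with every PGAM2 library of that time under 1 CPM. None of 10 pentose phosphate genes (4 higher, 3 lower) and none of 17 citric acid cycle genes (6 higher, 3 lower) was called. Among glycogen genes, PYGL, liver glycogen phosphorylase, was at 53.7, 55.6 and 65.6 CPM under Activin+BMP4 and 25.6, 24.5 and 28.4 CPM under BMP4 at 96 h (log2 -1.15, SE 0.07, adjusted p = 6.21e-18; -1.07 without Activin+BMP4 replicate 3). It was lower with BMP4, as PGM1 was.

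Among 15 regulators and glucose transporters, 8 passed higher and 3 lower with BMP4 at 96 h, and EPAS1 and SLC2A3 were called. EPAS1, which encodes the hypoxia-inducible factor HIF-2α, was at 3.48, 2.34 and 2.33 CPM under Activin+BMP4 and 473, 497 and 429 CPM under BMP4 (log2 7.43, SE 0.1, adjusted p = 1.51e-40; 7.33 without replicate 3). Its paralogue HIF1A differed by 0.27 (0.22 without replicate 3). SLC2A3, the glucose transporter GLUT3, was at 832, 821 and 830 CPM untreated, 3040, 3180 and 2250 CPM under Activin+BMP4 and 1180, 1220 and 1120 CPM under BMP4 (log2 -1.27, SE 0.07, adjusted p = 1.95e-19; -1.41 without replicate 3). SLC2A1, the transporter GLUT1, went the other way, at 80.5, 81.7 and 125 CPM under Activin+BMP4 and 170, 194 and 191 CPM under BMP4 (log2 0.95, SE 0.08), and at 1.18 it was called without replicate 3. TXNIP, an inhibitor of glucose uptake, was at 10.6, 15.3 and 68.2 CPM in the Activin+BMP4 libraries, again highest in replicate 3, and its difference of -0.76 (adjusted p = 0.058) became 0.52 without it.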

How the data were processed

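RNA from 51 libraries was measured by sequencing; the labels name a KAPA RNA HyperPrep kit. The authors deposited 1 table of whole-number counts per gene, not normalized. Per the submitters' processing notes, cutadapt 1.5, STAR 2.5.2a and RSEM 1.3.0 were used with GRCh38; their order, the annotation release and strand use are not given in the sources used here. Library totals were 22.8 M to 30.4 M, which limits precision for genes of few counts such as PDK4 and SLC16A3. Groups came from the labels. edgeR 4.0.16 in R 4.3.3 fitted all 17 groups at once (filterByExpr with a minimum count of 10, TMM, quasi-likelihood test), and p-values were adjusted by Benjamini-Hochberg over 19603 genes. Alternatives were DESeq2 1.42.0, other scalings and filters, a replicate block and leaving out libraries. Gene lengths and overlaps came from GENCODE 29 and promoters from RefSeq. The test was tested on simulated data. All 32 members could be named; values per library are given for those called in a comparison, and genes of other lists where called at 48 or 96 h, with regulators free; per-library values of HK2, ALDOC, LDHA, PDHB and ENO2 were added after their values were seen. The members and lists were chosen with earlier results of these data known.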

Additional observations from a re-analysis of the deposited data

Results flagged for a closer look

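Of the 32 members, 6 were called for a change of the BMP4 to Activin+BMP4 difference from 24 h to 96 h. Called means an adjusted p under 0.05 by edgeR and at least 2-fold, with 3 libraries a group and changes on the log2 scale. Among all genes 13.6% were called. At any size 21 members passed, against 45.5% of all genes. PFKP changed by 1.6 (adjusted p = 1.19e-19) and PFKFB3 by 1.4 (adjusted p = 9.42e-16), toward BMP4. PGM1 changed by -1.33 (adjusted p = 1.48e-14) and PKM by -1.07 (adjusted p = 1.76e-22), toward Activin+BMP4. These 4 remained called without Activin+BMP4 96 h replicate 3, at 1.7, 1.32, -1.23 and -1.1. SLC16A3 changed by -1.17 (adjusted p = 0.0229) and ENO2 by -1.02 (adjusted p = 4.74e-06). Without that library they changed by -0.52 (adjusted p = 0.207) and -0.75 (adjusted p = 2.59e-05), and neither was called.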

How the results depend on the processing

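In the alternatives run for the 32 called pairs of gene and comparison, 467 of 484 values were still called, 17 had the same direction without a call, and 0 were reversed. Without the 2-fold threshold the counts of members were 1, 4, 10, 14, 22, 20 and 25 for BMP4 against Activin+BMP4 at 6, 12, 24, 36, 48, 72 and 96 h, 13, 20, 21 and 27 for Activin+BMP4 and 13, 20, 25 and 27 for BMP4 against untreated at 6, 24, 48 and 96 h, and 21 for the change from 24 h to 96 h. With only the groups compared, these counts were 13 in place of 25 at 96 h, 17 in place of 10 at 24 h and 21 in place of 13 for Activin+BMP4 at 6 h against untreated; without the 3 libraries standing apart (an alternative chosen after seeing the data) the last 2 were 16 and 20. Leaving out 1 library gave as few as 0 at 6 h (without Activin+BMP4 replicate 3 or BMP4 replicate 1), 2 at 12 h (without replicate 1 of either treatment) and 6 at 24 h (without Activin+BMP4 replicate 1). The shares of all genes passing or called were not counted in these alternative fits or in those that follow. At 48 h, where no member was called, 1 was called without the 3 libraries or with only the groups compared, and leaving out 1 library at a time gave 0 to 1. At 72 h, 2 members were called in place of 1 with no scaling factors, no filter, a stricter filter, without the 3 libraries or with only the groups compared, and leaving out 1 library gave 0 to 3. Against untreated at 6 h, leaving out 1 library gave 0 to 1 for either treatment. The SLC16A3 change from 24 h to 96 h was also not called with only the groups compared, without Activin+BMP4 24 h replicate 3 or without BMP4 24 h replicate 2, and that of ENO2 was -0.97 without BMP4 24 h replicate 1 or BMP4 96 h replicate 1 and, just under 2-fold, -1 without BMP4 96 h replicate 2. With the replicate block, 3 members were called at 96 h, as without it, and no count of called members changed. The numbers do not pair the libraries: 1 of 24 pairs had a correlation over 0.1 (range -0.13 to 0.11), and 5 BMP4 libraries correlated best with their own number. The causes were not tested.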
